A study of Mus musculus with 333 samples.

Results

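The 25 cells whose titles begin E18.5mThal and whose cell type label reads unannotated were compared with the 65 cells titled E18.5_mVc and labelled Neurons. Members were taken by title and label alone, 90 of the 333 single cells of the series. All were wild-type mouse brain cells of embryonic day 18.5, enriched by FACS with a gate not given in the sources used here, captured one by one and sequenced from polyA RNA. The series names visual cortex, hippocampus and thalamus as its regions and 5 mice at each age, and no label ties a cell to a mouse. Each arm is therefore 1 sample, no p-value was computed, and every interval below covers counting error only. The source field of all 51 E18.5 mThal cells names visual cortex, against their titles, and their cell IDs (1485 to 1538) lie just before those of the mVc cells (1539 to 1609), so region cannot be told apart from anything else that differed between those IDs.

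By background knowledge, the thalamus is the diencephalic relay that sends sensory axons to the cortex, and its glutamatergic neurons are marked before birth by Tcf7l2, Lhx9 and Gbx2. Tbr1 and Bcl11b belong to cortical projection neurons. Zic genes encode zinc finger factors of the dorsal midline, diencephalon, cerebellum and meninges that postmitotic cortical neurons largely lack.

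The 25 cells did not all carry neuronal genes. Reads of a cell were scaled to CPM, counts in each 1000000 reads, and markers were averaged per cell as log2(CPM + 1). In 8 cells (mThal cells 1, 10, 12, 16, 25, 26, 36 and 42) the 8 fibroblast markers, collagens and other matrix and transporter genes, averaged 8.18 or more, and in the other 17 they averaged 1.18 or less. No cell lay between these values, and the highest of the 65 mVc neurons was at 0.944. These 8 are called fibroblast-like below. Averaged over the pan-neuronal genes, the 8 ranged from 0.292 to 3.02 with a median of 0.742, the 17 from 2.06 to 8.11 with a median of 4.801, and the mVc neurons from 3.87 to 8.25 with a median of 6.21. Of the 17, 10 cells lay within the range of the mVc neurons and 7 (mThal cells 4, 6, 22, 23, 33, 40 and 51) below it. The split was made after the values were seen, so the markers behind it are a description, and pooled values of the 25 are given with those of the 17 and the 8.

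**Figure D1:**
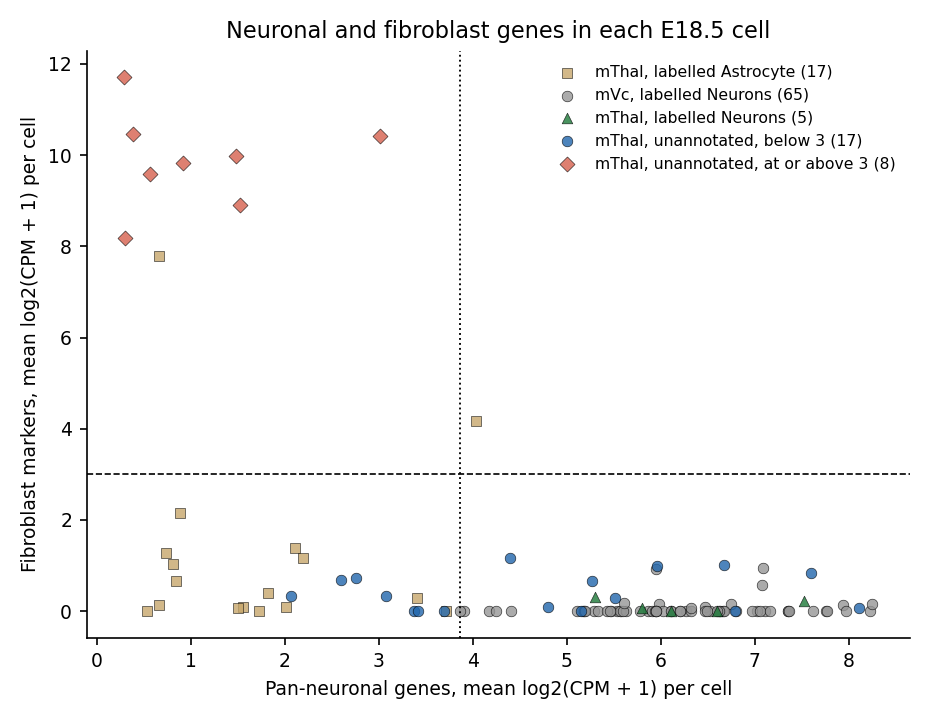
Mean log2(CPM + 1) of the pan-neuronal genes (x axis) against that of the fibroblast markers (y axis), 1 point per E18.5 cell, with the dashed line at 3 and the dotted line at the lowest mVc neuron. The 8 fibroblast-like cells sit at 8.18 or above and left of the dotted line, 10 of the other 17 lie among the mVc neurons, and 2 of the 17 cells labelled Astrocyte are also above 3.

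Depth overlapped between the arms. The 25 cells held 613761 to 2827779 reads (median 1629799) and 1652 to 5184 detected genes (median 3131), and the 65 held 484310 to 2353760 reads (median 1432276) and 1750 to 6649 genes (median 3406). Genes that reached 10 CPM in at least 1 of the pooled arms are called measured. A gene was called where the pooled levels lay at least 4-fold apart and the share of cells with a read lay at least 20 points apart in the same direction, with each cell thinned to 700000 reads, which kept 23 of the 25 and 52 of the 65. Of 9727 measured genes, 428 (4.4%) were called higher in the 25 cells and 587 (6.03%) lower, and the median log2 ratio was 0.01. By the 4-fold difference alone these were 1783 (18.3%) and 1857 (19.1%). Against the same 65 neurons the 17 cells gave 318 higher (3.44%) and 625 lower (6.75%) of 9257, and the 8 gave 958 higher (10.3%) and 1689 lower (18.2%) of 9291. Counts of called list members below are to be read beside these shares. Of the 428 genes called higher, 156 were also called in the 17 cells alone, as were 423 of the 587 called lower.

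The 4 Zic genes examined (Zic1, Zic2, Zic4 and Zic5) were called higher in the 25 cells, with a median log2 ratio of 6.80, and in the 17 cells, with a median of 6.79. Zic1 was at 95.8 CPM in the 17 (lowest cell 0, median 20.7, highest 727), at 171 in the 8 (lowest 0, median 191, highest 513) and had no read in any of the 65. It was read in 18 of 23 thinned unannotated cells and in 0 of 52 mVc neurons, which allows a share of up to 5.77%. The pooled level of 123 CPM was at least 3499-fold higher than a floor of 3 reads over the mVc arm. Folds against this floor, here and below, treat reads as independent, which they are not without molecular identifiers. They cover the counting of reads only and do not bound the level in cells that were not sampled. Zic4 was at 154 CPM in the 17 and 37.02 in the 8, again without a read in the 65, at least 3193-fold higher for the 25 together. Zic5 was at 293 CPM in the 17 (median cell 103, highest 1246), at 192 in the 8 and at 1.33 in the mVc neurons, where 2 cells reached 10 CPM. Levels of Zic2 were 24.998 against 0.445 CPM over all 25 cells, of which 8 reached 10 CPM, the highest being cell 13 at 217. Its log2 ratio of 4.17 ran from 3.50 to 4.67 with 1 cell left out at a time.

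Zic reads were spread over nearly every unannotated cell. At least 1 of these 4 genes reached 10 CPM in 15 of the 17 and in all 8 of the fibroblast-like cells, against 3 of the 65 mVc neurons. Among the 17, mThal cells 30 and 41 were the exceptions. The other cells of the set carried them as well: 4 of the 5 mThal cells labelled Neurons and 8 of the 17 labelled Astrocyte had 1 at that level. Zic1 was at 416 CPM in those 5 neurons and 24.6 in the astrocytes.

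Zic1 and Zic4 are head-to-head neighbours, and the bases before their starts are shown because both genes were read in the mThal cells and had no read in the mVc neurons; Tcf7l2 and Tbr1 are shown as a thalamic and a cortical factor described below. The sequences are the 250 bases before each start from RefSeq (GRCm38.p6), 5′ to 3′ on the gene's strand, at chr9:91365769-91366018 (Zic1, minus strand), chr9:91368722-91368971 (Zic4, plus), chr19:55741560-55741809 (Tcf7l2, plus, the first of 2 listed starts) and chr2:61804203-61804452 (Tbr1, plus). Capitals mark a match to CTTTGA (TCF/LEF), CAGATG (E-box) or CAGCAGG (Zic) on either strand.
Zic1: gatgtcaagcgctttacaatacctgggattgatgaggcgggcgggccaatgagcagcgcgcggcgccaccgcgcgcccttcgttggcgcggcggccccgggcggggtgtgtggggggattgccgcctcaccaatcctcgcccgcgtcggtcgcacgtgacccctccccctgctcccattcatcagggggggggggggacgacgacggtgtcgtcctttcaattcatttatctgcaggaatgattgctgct
Zic4: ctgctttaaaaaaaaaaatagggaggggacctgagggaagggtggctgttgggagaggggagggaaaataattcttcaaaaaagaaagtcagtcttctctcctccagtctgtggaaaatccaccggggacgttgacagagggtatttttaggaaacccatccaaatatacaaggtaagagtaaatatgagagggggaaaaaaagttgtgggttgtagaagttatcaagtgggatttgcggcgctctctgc
Tcf7l2: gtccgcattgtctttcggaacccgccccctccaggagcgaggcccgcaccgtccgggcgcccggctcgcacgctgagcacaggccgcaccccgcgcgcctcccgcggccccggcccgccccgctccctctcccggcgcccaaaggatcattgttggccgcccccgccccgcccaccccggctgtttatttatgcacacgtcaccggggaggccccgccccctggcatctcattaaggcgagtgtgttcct
Tbr1: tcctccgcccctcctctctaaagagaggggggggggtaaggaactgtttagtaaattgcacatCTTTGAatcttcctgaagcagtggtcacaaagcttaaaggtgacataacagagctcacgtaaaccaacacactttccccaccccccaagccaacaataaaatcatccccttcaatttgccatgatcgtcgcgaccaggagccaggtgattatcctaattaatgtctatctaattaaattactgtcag
The starts of Zic1 and Zic4 lie 3204 bases apart on opposite strands. The windows differ in base composition, with 27 CG dinucleotides before Zic1 and 4 before Zic4, against a median of 6 over 32851 windows. The Tcf7l2 window held 30, more than 94.1% of all windows, and the Tbr1 window 5. The TCF/LEF letters occurred in 13.8% of all windows, the E-box in 14.4% and the Zic letters in 8.4%. Among these 4 windows the only match was 1 TCF/LEF match before Tbr1, and no motif overlapped another.

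Tcf7l2, the TCF/LEF factor of thalamic and habenular neurons, was at 551 CPM in the 25 cells against 19.9 in the mVc neurons, a log2 ratio of 4.72 (3.95 to 5.03 over leaving out each cell). It was read in 15 of 23 against 8 of 52 thinned cells. Most of its reads came from 2 of the 17 cells, mThal cell 34 at 10053 CPM and cell 18 at 6089, while the median of the 17 was 1.62 and 6 of them reached 10 CPM. Among the fibroblast-like cells 5 of the 8 also reached 10 CPM (highest 1062), as did 11 of the 65 mVc neurons (highest 415), so the groups overlapped. The 5 mThal cells labelled Neurons were at 2836 CPM and the 17 labelled Astrocyte at 721, so Tcf7l2 was read in labelled glia of the set as well as in neurons.

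Lhx9, a LIM homeobox factor of thalamic neurons, was read in 4 of the 17 cells (cell 40 at 1163 CPM, cell 34 at 688, cell 38 at 54.2 and cell 18 at 28.6) and in none of the 8 or of the 65. At 39.7 CPM over the 25 it was at least 1131-fold higher than the floor, but its share of cells lay under 20 points above the mVc neurons, so it was called in the 17 cells and not in the 25. Gbx2 had no read in either arm. Cells 34 and 18 combined high Tcf7l2 with Lhx9, with Slc17a6, the vesicular glutamate transporter of thalamic neurons (2204 and 368 CPM), and with En1, a midbrain factor (52.1 and 450 CPM).

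Of the 12 thalamic glutamatergic factors 10 were measured; 3 were called higher (Tcf7l2, Foxp2 and Rora) and 1 lower (Mef2c), with a median of 0.15 against 0.01 over all genes. Foxp2 and Rora came from the fibroblast-like cells. Foxp2 was at 216 CPM in the 8, 1.32 in the 17 and 4.12 in the 65, so that its log2 ratio of 3.96 became -1.14 without the 8. Cell 26 held 1101 CPM of it and 4 of the 8 cells reached 10 CPM, and with 1 cell left out at a time the ratio over the 25 ran from 2.31 to 5.34. Rora was at 556, 29.8 and 8.38 CPM in the same order. Prox1, a factor of thalamic and hippocampal neurons, was at 0.281 CPM against 92.0 and reached 10 CPM in 0 of the 25 and 9 of the 65 cells. In the 17 cells 2 of 9 factors were called higher (Tcf7l2 and Lhx9) and 2 lower (Mef2c and Etv1), with a median of -0.47 against -0.16 over all genes. Mef2c is also a factor of cortical neuron maturation and Etv1 is also in the cerebellar granule cell list below. The lower calls are therefore not of genes particular to the thalamus.

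**Figure D2:**
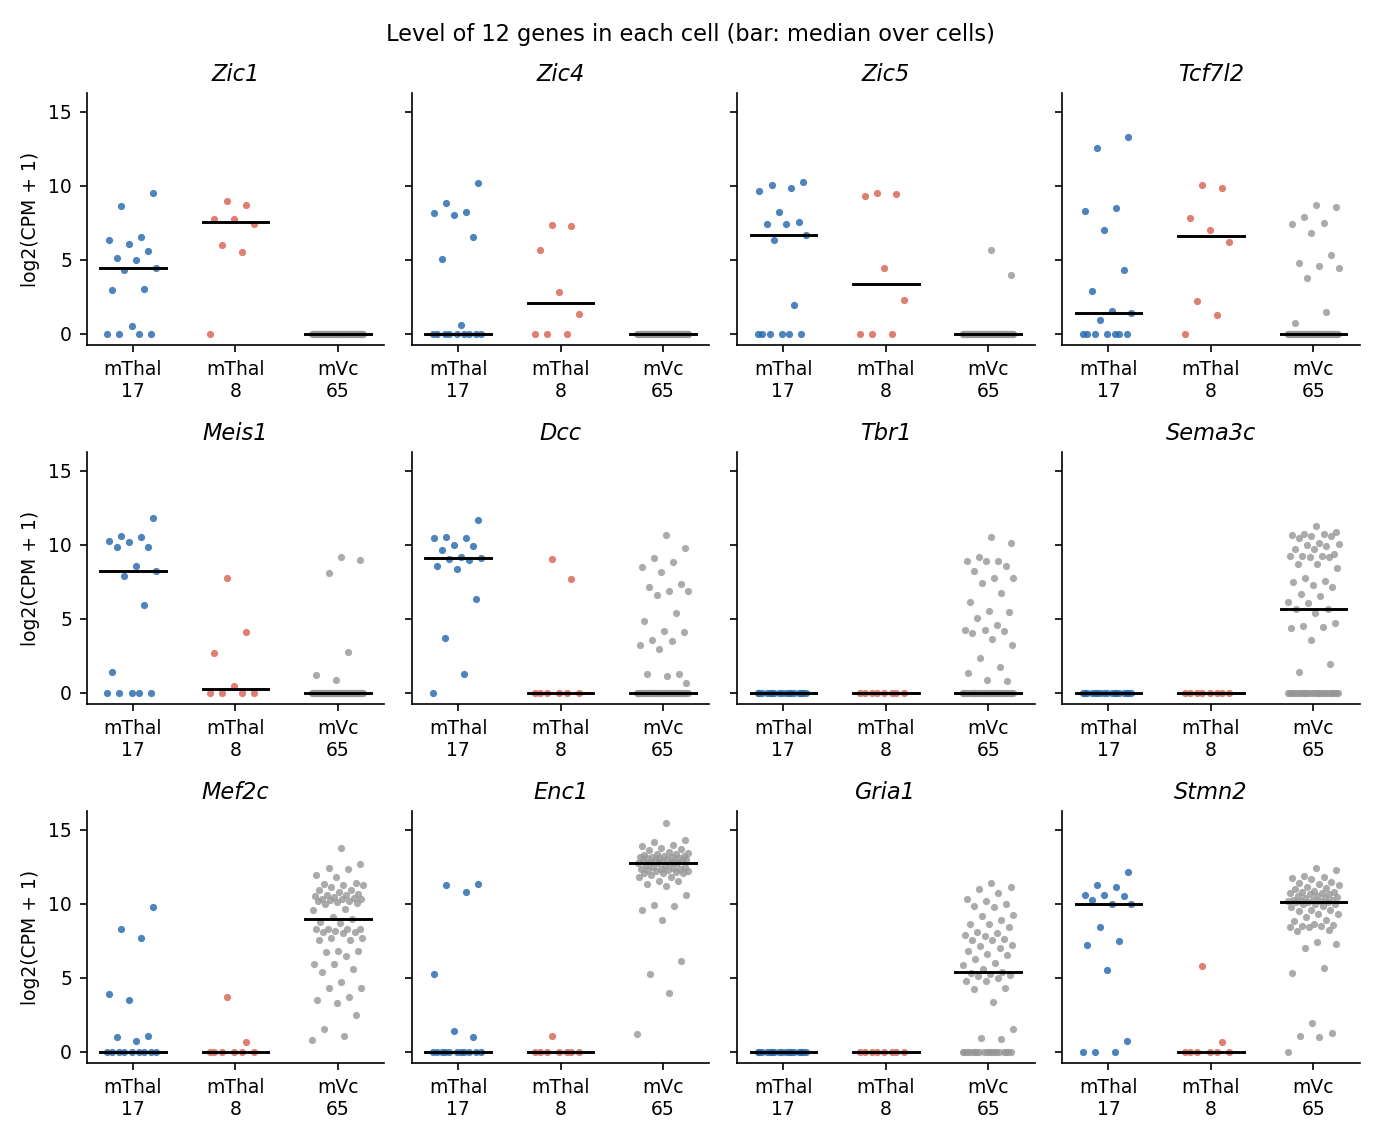
Level of 12 genes in each cell as log2(CPM + 1), for the 17 unannotated mThal cells, the 8 fibroblast-like ones and the 65 mVc neurons, with a bar at the median. Zic1 and Zic4 have no read in any mVc neuron, Tbr1, Sema3c and Gria1 none in any unannotated cell, and Tcf7l2 overlaps between the groups with mThal cells 34 and 18 at 10053 and 6089 CPM.

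Meis1, a homeobox factor, was at 784 CPM in the 17 (median cell 295, highest 3643 in cell 15), at 34.6 in the 8 and at 17.5 in the mVc neurons, where 3 of 65 cells reached 10 CPM against 11 of the 17. Reln, the secreted guidance protein of Cajal-Retzius and cerebellar granule cells, was at 506 CPM in the 17 (median 250, highest 3070), 11.2 in the 8 and 12.4 in the 65. Pax6 was at 424, 2.41 and 24.4 CPM in the same order. Neurod1, a differentiation factor of glutamatergic neurons, was at 790 CPM in the 17 against 105 in the 65, and was not called because its share of cells did not differ by 20 points. Neurod1 and Pax6 both reached 10 CPM in 7 of the 17 cells and in 3 of the 65, and cells 13, 15 and 38 carried Zic1, Meis1, Reln, Neurod1 and Pax6 together.

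By list, 5 of 8 measured cerebellar granule cell genes were called higher in the 25 cells (Pax6, Meis1, Reln, Zic1 and Zic2) and none lower. Their median was 4.21. Atoh1, Cbln3 and Gabra6 stayed under the minimum. In the 17 cells 5 of 9 were higher and 1 lower (Etv1), where 3.44% and 6.75% of all genes were, with a median of 4.07. In the 8 cells 2 of 7 were higher and 0 lower, where 10.3% and 18.2% of all genes were, with a median of 0.95. Of the Cajal-Retzius genes 4 were measured and 3 called higher (Reln, Lhx1 and Ebf3), while Trp73, their defining factor, was not measured. Lhx1 was at 37.03 CPM in the 17, reaching 10 CPM in 6 cells, and Ebf3 at 78.8 CPM, with no read and 6 reads in the mVc arm. Both lists hold Reln, and the first shares Zic1 and Zic2 with the Zic family. Pax3, a dorsal midbrain and neural crest factor, was at 152 CPM in the 17 and reached 10 CPM in 3 cells, against 1 read in the 65. En1 was at 35.5 CPM in 3 of the 17 against no read. Isl1 came almost wholly from mThal cell 30 at 3297 CPM, which also had Gad2, the GABA-synthesising enzyme, at 1567 CPM and no read of Zic1 or Zic5. Of the 10 hypothalamic genes, the 2 measured (Lhx6 and Sst) had no read in the 25 cells. Both reached the minimum only through the mVc arm and are also interneuron genes. The list therefore could not be assessed in the 25 cells.

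Of 6 measured telencephalic factors 0 were called higher and 2 lower in the 25 cells (Tbr1 and Bcl11b), with a median of -1.91. Over all genes 4.4% were called higher and 6.03% lower. In the 17 cells 1 of 6 was lower (Tbr1), where 6.75% of all genes were, with a median of -1.31. Tbr1, a factor of deep-layer and early cortical neurons, was at 91.8 CPM in the mVc arm, where 22 cells reached 10 CPM, and had no read in the 25, at least 1198-fold lower. Bcl11b, a factor of subcerebral projection neurons, was at 27.04 CPM in the 25, from 3 cells, against 118 CPM in the 65, from 23 cells.

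Of 21 measured cortical excitatory genes 0 were higher and 9 lower, with a median of -2.09 (-2.13 to -1.38 over leaving out each cell, the last without mVc cell 36); in the 17 cells 6 were lower with a median of -1.46. Enc1, an actin-binding protein abundant in cortical neurons, was at 8056 CPM in the mVc neurons (median cell 6776) and reached 10 CPM in 64 of the 65. It was at 362 CPM in the 17, carried by 4 cells of which the highest was at 2628, and the median cell was at 0. Mef2c, a transcription factor of cortical neuron maturation, was at 43.6 CPM in the 17 and 0.851 in the 8 against 1196 in the 65. Neurod6, of cortical and hippocampal pyramidal neurons, was at 188 CPM in the 17, with 5 cells at 10 CPM or more, against 921 in the 65. Nfib, Sox5 and Cux1, transcription factors of the same list, were not called, at 3192, 75.5 and 236 CPM in the 25 cells against 4026, 57.6 and 274 CPM. Of 12 interneuron genes 2 were called lower in the 25 (Dlx1 and Dlx6os1), with a median of -2.37, or -4.23 without mThal cell 30. Dlx6os1 is antisense to a neighbour and was counted with strand handling not stated. In the 17 cells 1 of 14 was lower, where 6.75% of all genes were, with a median of -1.42, or -3.55 without cell 30. In the 8 cells 4 of 12 were lower and 1 higher, where 18.2% and 10.3% of all genes were. Lhx6, Sp8, Sst and Nxph1 had no read in the 25 cells and were at 34.3, 90.6, 17.3 and 43.5 CPM in the 65.

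Of 19 measured pan-neuronal genes 0 were higher and 4 lower in the 25 cells (Mapt, Dcx, Rbfox3 and L1cam), with a median of -0.66, which was -2.21 with the mean log2(CPM + 1) per cell. The 17 cells had 2 lower and a median of -0.30 against -0.16 over all genes, and the 10 cells within the range of the mVc neurons had 0 called in either direction, where 3.65% of all genes were called higher and 10.3% lower, and a median of 0.29 against -0.60, but were chosen by these genes. In the 8 cells 16 of 19 were lower with a median of -4.56, or -5.91 without mThal cell 16. That cell had the highest neuronal average of the 8 (3.02) and the most detected genes of the 25 (5184). Stmn2, a tubulin regulator of growing axons, was at 1003 CPM in the 17 (lowest cell 0, median 1017, highest 4598) against 1236 in the 65 (lowest 0, median 1094, highest 5401), so these ranges overlapped over nearly their full width. Dcx, the microtubule protein of migrating neurons, was at 711 CPM in the 17 (median 259) against 2613 in the 65 (median 2463, lowest 32.4), and Map2 at 800 against 1001 CPM.

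Part of the synaptic list was lower, in the 17 cells as well. Of 18 measured, 10 were lower in the 25 cells with a median of -2.66, and 6 in the 17 (Syn1, Syt4, Vamp2, Grin2b, Gria1 and Camk2b) with a median of -2.46. Gria1, an AMPA receptor subunit, had no read in any of the 25 and was at 343 CPM in the mVc neurons, with 42 of 65 cells at 10 CPM or more and a median cell at 41.5, which puts the 25 at least 4480-fold lower. Syt4, a synaptotagmin of dense-core vesicles, was at 72.5 CPM in the 17, from 4 cells, and without a read in the 8, against 944 in the 65. Nrxn3, a presynaptic neurexin, and Syp, a vesicle protein, were not called, at 316 and 17.9 CPM in the 25 against 264 and 24.9 CPM. Of the transmitter genes, Slc17a6 reached 10 CPM in 6 of the 17, Gad2 in 3 and both in 0; in the mVc neurons these were 16, 20 and 4 of 65. Neither these nor Gad1 reached that level in 7 of the 17 and in 31 of the 65.

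Axon guidance genes were called in both directions, most of them lower. Of 27 measured, 2 were called higher (Dcc and Sema6a) and 11 lower, with a median of -1.33. Dcc, the netrin receptor, was at 820 CPM in the 17 (lowest cell 0, median 555, highest 3247), at 77.3 in the 8 and at 73.0 in the 65, where the median cell had none. In thinned cells it was read in 15 of 15 of the 17 and 15 of 52 mVc neurons. Sema6a, a transmembrane semaphorin, was at 408, 544 and 28.2 CPM in the 17, the 8 and the 65. On the lower side, Sema3c, a secreted semaphorin, and Plxna4, a semaphorin receptor, had no read in the 25 and were at 432 and 271 CPM in the mVc neurons, at least 5646-fold and 3541-fold lower. Nrp1, the neuropilin that pairs with plexins, was at 67.3 against 630 CPM, and Epha3, an ephrin receptor, at 5.08 against 349 CPM. Of 11 cadherins 3 were lower (Cdh2, Cdh8 and Cdh12), where 6.03% of all genes were. Their median of -2.18 became -0.30 without mVc cell 16.

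**Figure D3:**
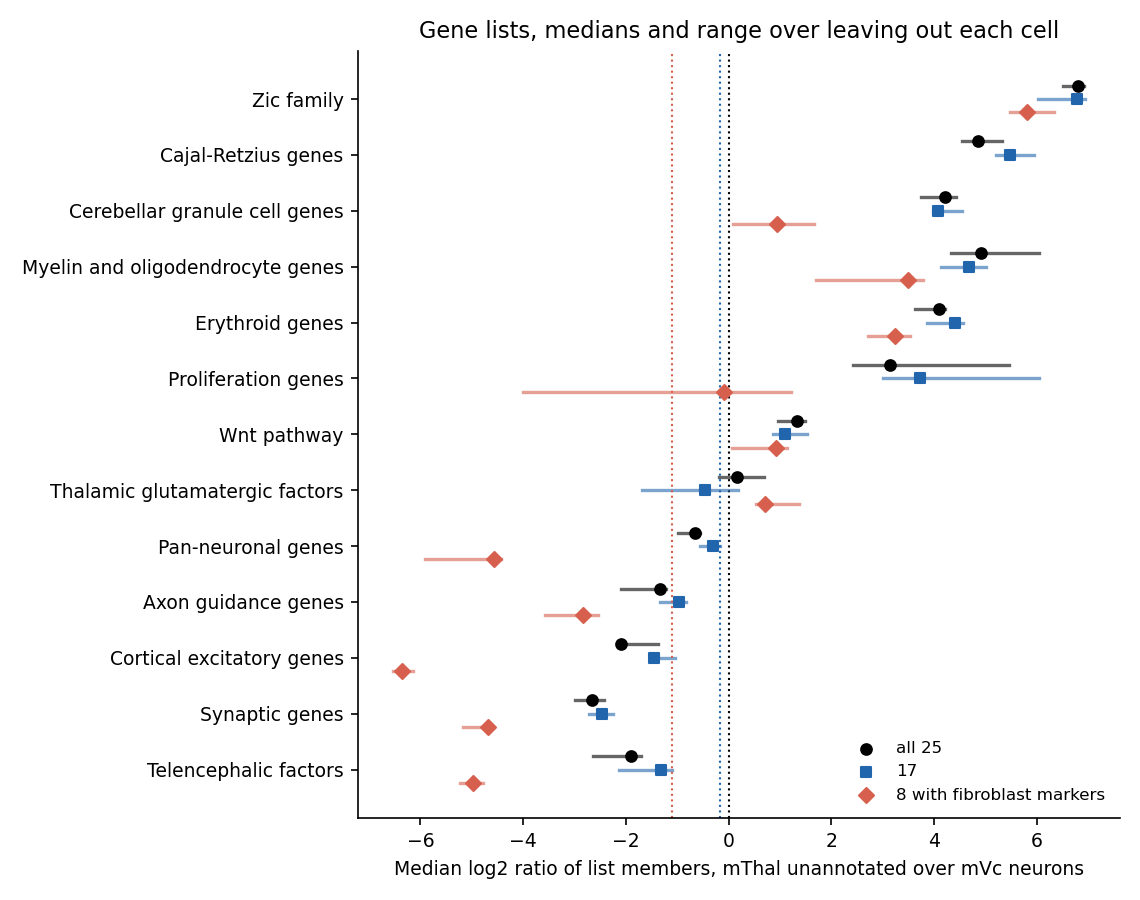
Median log2 ratio of the measured members of 13 gene lists, unannotated mThal cells over mVc neurons, for all 25 cells, the 17 and the 8; horizontal lines give the range over leaving out each cell in turn and dotted lines the median of all measured genes. Zic medians are at 5.81 to 6.80 in each set, telencephalic medians at -1.31 or below, and pan-neuronal medians split between -0.30 in the 17 and -4.56 in the 8.

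Of 31 measured Wnt pathway genes 6 were called higher in the 25 cells (Wnt5a, Axin2, Lef1, Tcf7l2, Nkd1 and Apcdd1) and 0 lower, with a median of 1.34 against 0.01 over all genes. That median was -0.03 with the mean log2(CPM + 1) per cell in place of the pooled level. Of 29 measured in the 8 cells, 6 were called higher and 5 lower, where 10.3% of all genes were higher and 18.2% lower. Their median was 0.92 against -1.10 over all genes. In the 10 cells within the neuronal range 4 of 29 were higher and 4 lower, where 3.65% and 10.3% of all genes were. The median of these 29 was 0.70 against -0.60 over all genes. In the 17 cells the ligand Wnt5a was at 0.16 CPM, against 1191 in the 8 and 3.00 in the 65, and the higher members were the nuclear factors Lef1 and Tcf7l2 and the feedback inhibitor Nkd1. Lef1 was at 72.5 CPM in the 17, with 6 cells at 10 CPM or more, against 8.93 in the 65, with 2 such cells. Axin2, a target and inhibitor of the pathway, was at 24.1 CPM in the 17, 36.6 in the 8 and 0.819 in the 65. Only 2 of the 17 cells reached 10 CPM, the highest being cell 30 at 553, and Axin2 was not called in the 17. Its log2 ratio of 3.79 ran from 0.94 to 4.14 with 1 cell left out at a time. Without mThal cell 23, whose removal moved it most, the median of the list in the 25 cells was 0.97.

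Of 14 measured proliferation genes, 5 were called higher in the 25 cells (Mki67, Top2a, Cdk1, Mcm2 and Mcm3) and 8 in the 17, with medians of 3.14 and 3.73. Averaged over the list, 4 of the 25 cells (13, 22, 33 and 51) were at 5 or more, against 1 of the 65 mVc neurons, and 0 of the 8 fibroblast-like cells reached 3. That mVc cell, cell 55, supplied most of the reads of its arm, and without it the list's median in the 25 cells was 5.46. Of the 8 fibroblast-like cells, mThal cell 16 lay just under 3 at 2.96, with Top2a at 1213 and Mki67 at 104 CPM. The list's median in the 8 was -0.09, or -4.01 without mThal cell 16. Top2a was at 683 CPM in the 17 with a median cell of 0.986 and a highest cell of 4357. Of the 7 cells below the neuronal range of the mVc arm 5 had a proliferation average of 3 or more. Cells 33 and 51 were also among the 3 cells with Pax3. Mki67, which marks cycling cells, was highest in mThal cell 49 at 5799 CPM, although the average of the list was 1.25 in that cell.

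Further genes of the 8 fibroblast-like cells are given as a description, since meningeal markers split them from the 17. Slc6a13, a GABA transporter of the leptomeninges and 1 of the 8 markers behind the split, ran from 2620 to 8054 CPM in the 8 (median 5269), with at most 2.96 CPM in any of the 17 and no read in the 65. Vtn, the matrix protein vitronectin, was at 6515 CPM, with 7 of the 8 cells at 10 CPM or more and no read in cell 10. Wnt5a was at 1191 CPM in the 8, in all of them above 16, and Gja1, the gap junction protein of astrocytes and meningeal cells, ran from 1147 to 5937 CPM. Foxc1, a meningeal and mural factor, was read at 10 CPM or more in 5 of the 8 and had no read in the 17 or the 65. Zic1 and Col1a1 reached 10 CPM together in 7 of these 8 cells.

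By the naming rule, the genes with the largest ratios in the 25 cells included Slc6a13, Vtn, Col3a1, Col1a1, Gpc3, Zic1, Zic4, Zic5 and Pdgfra on the higher side, of 69 that passed it. Of these, the collagens, Slc6a13 and Vtn were at under 1 CPM in the 17 cells. On the lower side they included Sema3c, Fam49a, Gria1, Plxna4, Clstn2, Prkar1b, Tiam2, Shtn1 and Lrp8, of 181. Fam49a was at 1.07 against 748 CPM, and Lrp8, a reelin receptor, at 4.06 against 448 CPM with 46 of 52 thinned mVc neurons read. Clstn2, a synaptic calsyntenin, had 1 read in the 25 cells, a level 7502-fold lower (counting interval 1346 to 296343). That fold rests on this 1 read, and its interval also treats reads as independent, which they are not. Applied to the 17 cells alone, the rule gave Mab21l1, Zic5, Zic1, Pde1c, Nedd1, Uhrf1, Meis1, Selenom, Reln and Tcf7l2 on the higher side. Mab21l1 was at 500 CPM in those 17, with 8 cells at 10 CPM or more, against 1.63 in the 65.

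**Figure D4:**
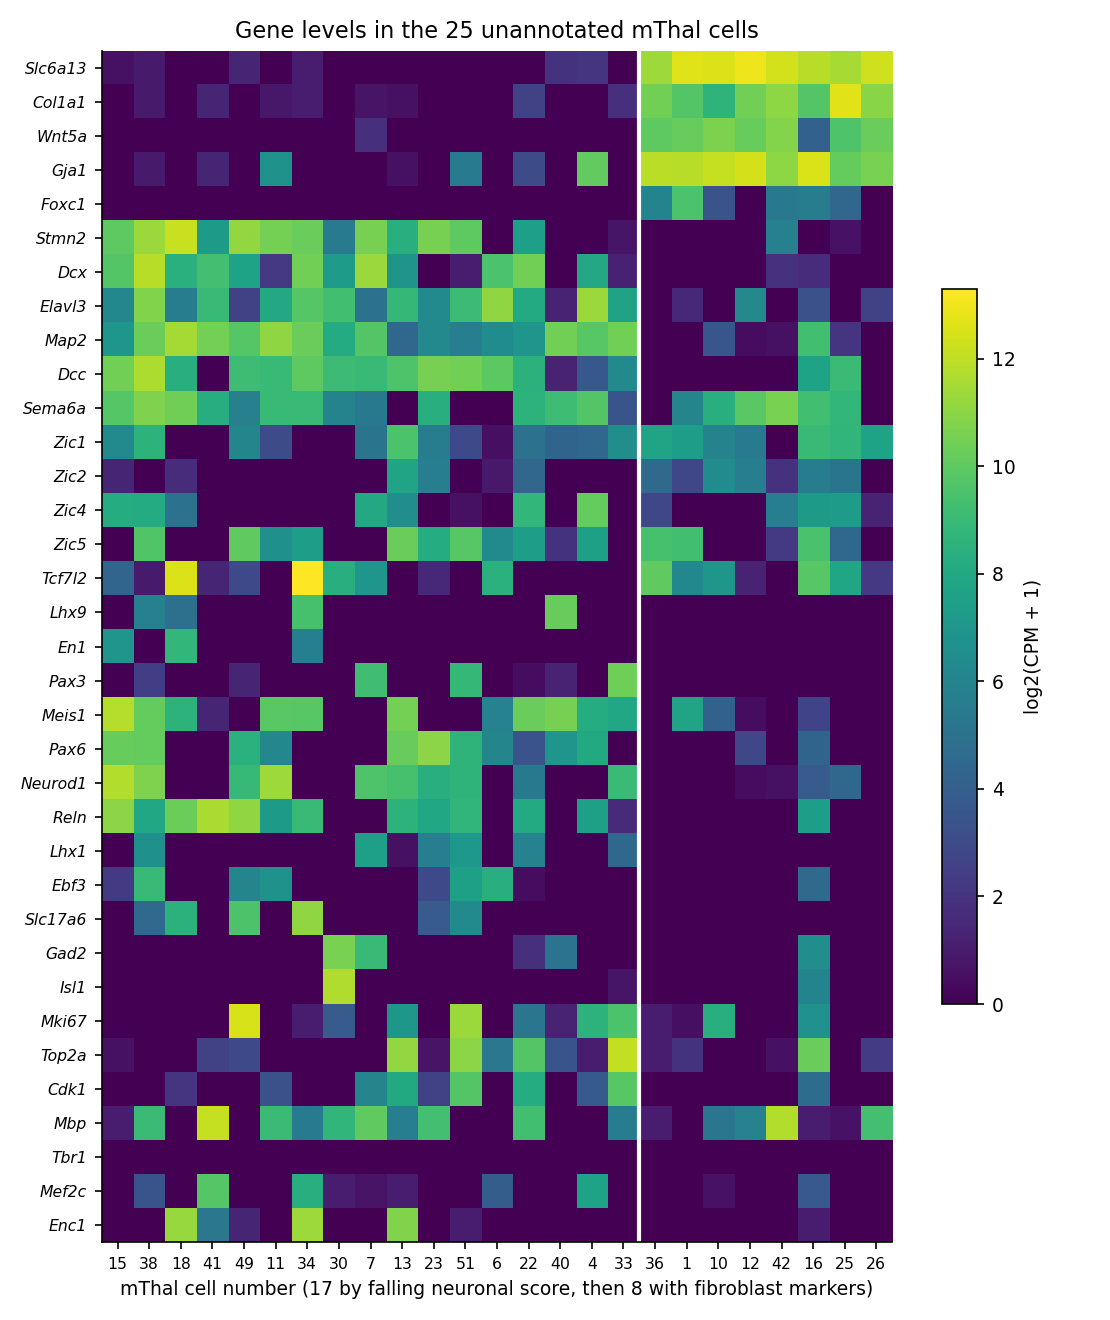
Level as log2(CPM + 1) of 35 genes in each of the 25 unannotated cells, with the 17 ordered by falling pan-neuronal average and the 8 fibroblast-like cells right of the white line. Zic1 runs across both blocks, Dcc reaches 10 CPM in 15 and Stmn2 in 13 of the 17 cells on the left, Tcf7l2 peaks in cells 18 and 34, and Tbr1 is at 0 throughout.

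Genes of other cell types were read across the mThal cells. Of 5 measured oligodendrocyte genes 3 were called higher (Mbp, Mobp and Cldn11), with median log2 ratios of 4.91 in the 25 cells, 4.69 in the 17 and 3.49 in the 8. At least 1 of those 3 reached 10 CPM in 10 of the 17, 7 of the 8 and 4 of the 65, and all 3 in 1 of the 17, 1 of the 8 and 0 of the 65. Among the labelled mThal cells, at least 1 of them did so in 2 of the 5 neurons and 8 of the 17 astrocytes. Mbp, a myelin protein, was at 381 CPM in the 17 (median cell 46.6, highest 4413 in cell 41) against 13.8 in the 65. Averaged per cell, the list ran from 0.0 to 3.71 in the 17, from 0.145 to 3.35 in the 8 and from 0.0 to 2.88 in the 65, and Mog, a defining marker of mature oligodendrocytes, was at 0.0 CPM in the 25. All 4 measured globin genes, near-identical copies whose reads the counting may split, were also higher, with a median of 4.10 and an average per cell of 0.0 to 5.48 in the 25 against 0.0 to 2.67 in the 65. The median cell of that average was at 1.10 in the 25, 1.61 in the 5 labelled mThal neurons and 2.2 in the 17 labelled astrocytes. Reads of both lists were thus not particular to the unannotated cells of the set. Of 11 astrocyte markers 1 was higher in the 25 cells (Gja1) and Gfap was at 0.0 CPM. In the 17 cells 0 of 10 were called in either direction, where 3.44% of all genes were called higher and 6.75% lower, with a median of -2.82. In the 8 cells 3 of 11 were higher, where 10.3% of all genes were. Of 4 microglial markers C1qb was higher in the 25, from mThal cell 4 at 590 CPM. The part of these reads in the differences between the arms was not tested.

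Levels in the 5 mThal cells labelled Neurons are given as a description of few cells. Zic5 was at 293 CPM in the 17 unannotated cells and 274 in those 5, Meis1 at 784 and 2374, and Tcf7l2 at 754 and 2836. Dcc went the other way, at 820 against 17.1 CPM. Against the 17 cells labelled Astrocyte, 794 genes were higher (8.59%) and 684 lower (7.4%) of 9238; 12 of 18 pan-neuronal genes were higher, with a median of 2.90, and 10 of 11 astrocyte markers lower, with a median of -7.84. Dcc was at 820 CPM in the 17 unannotated cells against 5.53 in the astrocytes, and Tcf7l2 at 754 against 721.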

How the data were processed

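After FACS enrichment, single mouse brain cells were isolated on the Fluidigm C1, their polyA RNA was amplified with SMARTer chemistry, and libraries were made with Nextera XT, per the labels' protocols. The authors deposited raw counts, whole reads per gene for 333 cells and 22074 genes, made with STAR and HTSeq 0.6.0 on mm10, per the submitters' processing notes; no source used here gives the counting options or strand handling. No molecular identifiers were used, so reads are not independent molecules. Every column matched 1 cell by its cell ID. Of the gene names, 21273 matched a mouse symbol and 744 an older one; 57 kept their own.

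Members, the 32 gene lists and the comparisons were chosen with earlier results of these data known. Of 438 list entries 4 matched no row and were not analysed here; some genes are not reported here and were left out of the lists. For each arm the counts of its cells were added up, scaled to CPM and compared as a log2 ratio with 1 CPM added. The minimum for a measured gene was 10 CPM in at least 1 arm, and it was called at 4-fold and 20 points of thinned share of cells (700000 reads). Sums carry exact Poisson and shares exact Clopper-Pearson intervals at 95%, and a gene at 0 in an arm was set against 3 reads over that arm. Named genes are drawn from list members and the 10 largest ratios per direction among called genes with at least 50 CPM, a read in 50% of cells, 30 points of difference and a log2 ratio of at least 1, or at most -1, whichever cell was left out, without ribosomal protein, predicted, RIKEN or locus-number genes. Doublets were not called; the closest pair of E18.5 libraries had a Pearson correlation of 0.617 across genes on the log2(CPM + 1) scale. Promoters came from RefSeq. The ratio and call rule were tested on simulated counts, with shares of cells taken there without thinning, unlike in the data. The simulated counts took level and spread from the mVc neurons alone. They therefore do not cover the mixed unannotated cells, and no call above rests on them. Python 3.11.15, pandas 2.3.3, R 4.3.3, edgeR 4.0.16 and DESeq2 1.42.0 were used, the last 2 for scaling factors only. Alternatives covered scaling, weighting, added CPM, minimum level, thinning, call rule and the cells included.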

Additional observations from a re-analysis of the deposited data

How the results depend on the processing

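Under each alternative run, the 4 Zic genes stayed on the higher side and the telencephalic, cortical excitatory and synaptic medians on the lower side. The Zic median (6.80) was 6.94 with the mean of CPM per cell, 3.93 with the mean of log2(CPM + 1) per cell, 8.81 with 0.1 CPM added, 3.67 with 10 CPM added, 6.38 without the 10 mThal cells and 1 mVc cell that carried markers of another class, 6.99 with the 5 mThal neurons added, 6.96 with only the 10 cells in the neuronal range, and 6.51 to 6.91 over leaving out each cell. The fibroblast median (9.77) was 3.82 with mean log2, 12.75 with 0.1 CPM, 6.91 with 10 CPM, and 9.30 to 10.17 over leaving out each cell. It was 9.74 without cells of another class, because fibroblast markers were not used for that exclusion and fibroblast-like cells remained. The markers used were glial, microglial, endothelial, mural, ependymal and erythroid. Erythroid genes alone took out mThal cells 1, 4, 6, 7, 13, 36 and 40, so that setting is not a set of neurons. The telencephalic median (-1.91) was -1.53 with mean CPM, -1.48 with 10 CPM added, -1.45 without cells of another class, -1.33 with the 5 neurons, -1.31 without the 8 fibroblast-like cells, -1.56 with the 10, and -2.64 to -1.71 over leaving out each cell. The cortical excitatory median (-2.09) was -2.13 with TMM scaling, -2.27 with mean log2, -3.05 without cells of another class and -1.38 with the 5 neurons. The pan-neuronal median (-0.66) was -2.21 with mean log2, -0.47 with the 5 neurons, -0.30 without the 8 and 0.29 with the 10. The thalamic factor median (0.15) was -0.26 with mean log2, -0.47 without the 8 and -0.97 with the 10, and -0.18 to 0.68 over leaving out each cell.

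Counts of called genes (428 higher, 587 lower) were 203 and 594 with mean log2, 531 and 943 at 2-fold, 1783 and 1857 by fold alone, and 325 and 920 with the 10 cells. With mean log2, 186 of the 203 higher genes were among the 428 and 289 of the 594 lower ones among the 587. Leaving out each cell gave 388 to 464 higher and 540 to 628 lower. TMM scaling gave 423 and 595 and median-of-ratios scaling 428 and 587.

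Some medians turned sign. The astrocyte median (1.70) was -0.48 with mean CPM, -0.031 with mean log2, -0.95 without cells of another class, -2.82 without the 8, -2.10 with the 10, and -0.84 (without mThal cell 42) to 1.92 over leaving out each cell. The Wnt median (1.34) was -0.026 with mean log2. The habenular median (-3.53, over 3 measured genes) was 0.29 without the 8 (4 genes) and 3.48 with the 10 (5 genes). With no minimum, which added genes under 10 CPM in the same cells, the habenular median was 0.90. The radial glia median (1.25) was -0.76 without the 8 and -0.28 with the 10. Without the 8 and with the 10, Wnt5a (6.75) was at -1.78 and -1.62 and Foxp2 (3.96) at -1.14 and -2.15. Beyond the make-up of the cell sets and of the genes measured, the cause was not tested. Leaving out the 8 cells and keeping only the 10 were alternatives chosen after seeing the data. No paired analysis was possible because the numbers in the titles number cells, not animals. With 1 sample per arm, differences between mice are outside every range given, and a gene below 10 CPM in both arms was not assessed at this depth.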

Other observations

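Other regional and cell type lists held few measured members. Of the 15 factors of diencephalic GABAergic neurons 7 were measured in the 25 cells, 3 called higher (Otx2, Lhx1 and Pax6) and 1 lower (Meis2), with a median log2 ratio of 3.995. Of the 14 habenular genes 3 were measured, with Nhlh2 higher and Nr4a2 lower and a median of -3.53. Of 8 measured genes of thalamic excitability, ion channels and receptor subunits, 2 were lower (Cacna1h and Gabra2), with a median of -1.35, or -2.65 without mThal cell 18. Presynaptic glutamate genes had 0 of 2 called and presynaptic GABA and glycine genes 0 of 4, where 4.4% of all genes were called higher and 6.03% lower. The 2 measured monoamine genes, Slc18a2 and Tph2, were not called.

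Radial glia genes went in both directions, with Pax6 and Vim higher and Sox2 and Ptprz1 lower of 11 measured. Of 3 measured oligodendrocyte precursor genes Pdgfra was higher, and of 3 mural genes Pdgfrb and Vtn were. The single measured endothelial gene, Cdh5, and the 2 ependymal and choroid plexus genes, Kl and Rarres2, were not called. Immediate early and stress genes, which can mark cell dissociation, had 0 of 9 called in either direction with a median of 1.30. Over all measured genes 4.4% were called higher and 6.03% lower.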
